A study of Homo sapiens with 30 samples.

Results

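Genes that respond to low oxygen, together with the genes of the vasodilator peptide adrenomedullin and its paralogue, were examined for binding of SAP30 and for what its knockout left at their promoters. SAP30 is a small subunit of the SIN3 complex, a corepressor built on the scaffold proteins SIN3A and SIN3B that carries histone deacetylases. The paper that reported these data describes SAP30 also as a coactivator, acting with SIN3A, SIN3B and the methyltransferase MLL1. The 10 genes, ADM, ADM2, CA9, SLC2A1, LDHA, BNIP3, NDRG1, EGLN3, PDK1 and HIF1A, were taken from a fixed list, out of 20098 protein-coding genes on the autosomes and chromosome X. The cells were MDA-MB-231, a human line of triple-negative breast cancer, studied by chromatin immunoprecipitation followed by sequencing (ChIP-seq). They were kept in ordinary culture medium with serum and with no hypoxia named for any sample. Lists of SAP30, SIN3A and SIN3B come from the parental line only. Those of RNA polymerase II (Pol II) and of histone H3 with H3K4me3 or H3K9Ac come from the parental line and from SAP30-KO1, in which SAP30 had been knocked out by CRISPR/Cas9. The knockout line was a mixture of several single-cell clones, so it is 1 line and its libraries are repeats of that line. Each of the 9 groups held 2 libraries.

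Cells sense oxygen through prolyl hydroxylases, which mark the alpha subunit of hypoxia-inducible factor (HIF) for destruction while oxygen is present. When oxygen falls, HIF-1 alpha, the product of HIF1A, is stable, pairs with ARNT and binds short sites with the core letters ACGTG or GCGTG, and the genes it reaches raise glucose uptake and glycolysis, hold back mitochondrial respiration, control pH and call in blood vessels. Many breast cancers keep some of these genes on in ordinary oxygen.

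The 18 deposited lists give, for each library, the single base at the top of every peak (the summit) with a score that is the −log10 of its q-value. In length they ran from 10861 to 54622 peaks. Sequencing depth was unknown, so each score was turned into a rank within its own list, from 0% for the best peak to 100% for the last. The value of a gene in a library was the best-ranked summit within 1000 bp of any of its annotated start sites, called here a promoter peak. The summits on the same base in both replicates made up 0.243% to 1.24% of a list, so no list was a copy. Parental cells had Pol II and H3K9Ac promoter peaks in both libraries at 5 of 6 mesenchymal marker genes, SPARC being the exception, and at 3 of 7 luminal or epithelial ones (EPCAM, KRT8 and ERBB3), with neither at ESR1, PGR, CDH1 and GATA3. The SAP30 gene itself kept a promoter peak of all 3 marks in both lines, so the knockout cannot be checked from these lists.

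The sequences around the start sites of 5 of the genes are shown because they stand for the patterns described below. At ADM and LDHA Pol II had some of its best-ranked peaks. ADM2 and EGLN3 had a SAP30 promoter peak without one of a SIN3 protein, and CA9 had no promoter peak of SAP30 or Pol II. Each runs 5′ to 3′ along the gene, from 200 bases before its most upstream start site through the first 30 bases of the transcript, in GRCh37. Capitals mark the letters ACGTG or GCGTG on either strand, where the opposite strand reads as CACGT or CACGC, and where 2 matches overlap as CACGTG the 6 letters are in capitals. The positions are chr11:10326420-10326649 on the plus strand for ADM, chr22:50919772-50920001 on the plus strand for ADM2, chr9:35673725-35673954 on the plus strand for CA9, chr14:34420258-34420487 on the minus strand for EGLN3 and chr11:18415909-18416138 on the plus strand for LDHA.
ADM: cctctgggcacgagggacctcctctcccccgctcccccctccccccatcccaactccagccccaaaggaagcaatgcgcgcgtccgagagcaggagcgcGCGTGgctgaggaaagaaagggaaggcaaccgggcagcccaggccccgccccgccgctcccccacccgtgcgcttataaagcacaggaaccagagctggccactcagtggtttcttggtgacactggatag
ADM2: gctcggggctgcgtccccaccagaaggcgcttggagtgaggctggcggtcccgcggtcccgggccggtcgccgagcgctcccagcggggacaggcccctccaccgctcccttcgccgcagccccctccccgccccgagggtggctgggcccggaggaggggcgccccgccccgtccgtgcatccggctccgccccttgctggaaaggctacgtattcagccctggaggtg
CA9: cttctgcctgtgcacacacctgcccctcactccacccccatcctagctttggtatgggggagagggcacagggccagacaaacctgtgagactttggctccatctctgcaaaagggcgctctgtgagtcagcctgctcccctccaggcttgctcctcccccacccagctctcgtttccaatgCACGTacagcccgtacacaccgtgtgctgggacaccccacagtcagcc
EGLN3: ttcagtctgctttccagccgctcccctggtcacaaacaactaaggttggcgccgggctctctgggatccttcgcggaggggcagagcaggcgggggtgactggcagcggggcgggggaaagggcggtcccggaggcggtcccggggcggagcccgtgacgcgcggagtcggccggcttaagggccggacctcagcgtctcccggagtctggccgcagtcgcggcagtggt
LDHA: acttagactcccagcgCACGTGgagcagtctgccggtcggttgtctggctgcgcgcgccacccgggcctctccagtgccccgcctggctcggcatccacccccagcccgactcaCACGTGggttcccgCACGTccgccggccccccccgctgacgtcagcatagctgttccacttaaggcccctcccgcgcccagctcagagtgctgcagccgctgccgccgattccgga

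LDHA held 5 matches to ACGTG in this window, of which 4 came from a pair of palindromes read on both strands. CA9 had a single match to ACGTG on the opposite strand, 18 to 14 bases before its start. ADM had a single match to GCGTG, 101 to 97 bases before its start. No match was found in these 230 bases of ADM2, EGLN3 or HIF1A, which says only that the letters are not in this window. Over all 10 genes, 3 had ACGTG (CA9, LDHA and BNIP3) and 5 had GCGTG (ADM, SLC2A1, BNIP3, NDRG1 and PDK1). Of all 20098 coding genes, 19.0% had ACGTG, 36.6% had GCGTG and 47.5% had either in the same window, so such short words are common and a match is not a binding site. The 10 promoters differed in base composition. The ratio of observed to expected CpG, over 500 bp at each side of the start, was 0.139 at CA9, at the 5.01 percentile of coding genes, and 0.553 at ADM. It was between 0.773 and 0.952 at the other 8 genes, all above the median of 0.707.

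SAP30 was present at most of these promoters. Both libraries held a SAP30 promoter peak at 8 of the 10 genes, beside 61.2% of all coding genes, and the 2 exceptions were ADM, with a peak in 1 library, and CA9, with none. SIN3A had a promoter peak in both libraries at 7 genes, beside 31.5% of coding genes, and SIN3B at the same 7, beside 51.7%. ADM2, CA9 and EGLN3 had no promoter peak of either SIN3 protein in any library. All 3 proteins were present in both libraries at SLC2A1, LDHA, BNIP3, NDRG1, PDK1 and HIF1A, that is at 6 of 10 genes beside 30.2% of coding genes. A SAP30 promoter peak in both libraries with none of SIN3A or SIN3B was found at ADM2 and EGLN3, 2 of 10 genes, beside 4.92% of coding genes. These are counts over a chosen list and carry no test. A promoter without a called summit may still be bound. By ChIP with quantitative PCR the paper reports SIN3A and SIN3B enriched at ADM2 in parental cells, and less so in SAP30-KO1. The SIN3A lists held 11115 and 10861 peaks, and the SAP30 lists 35001 and 35007.

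**Figure D1:**
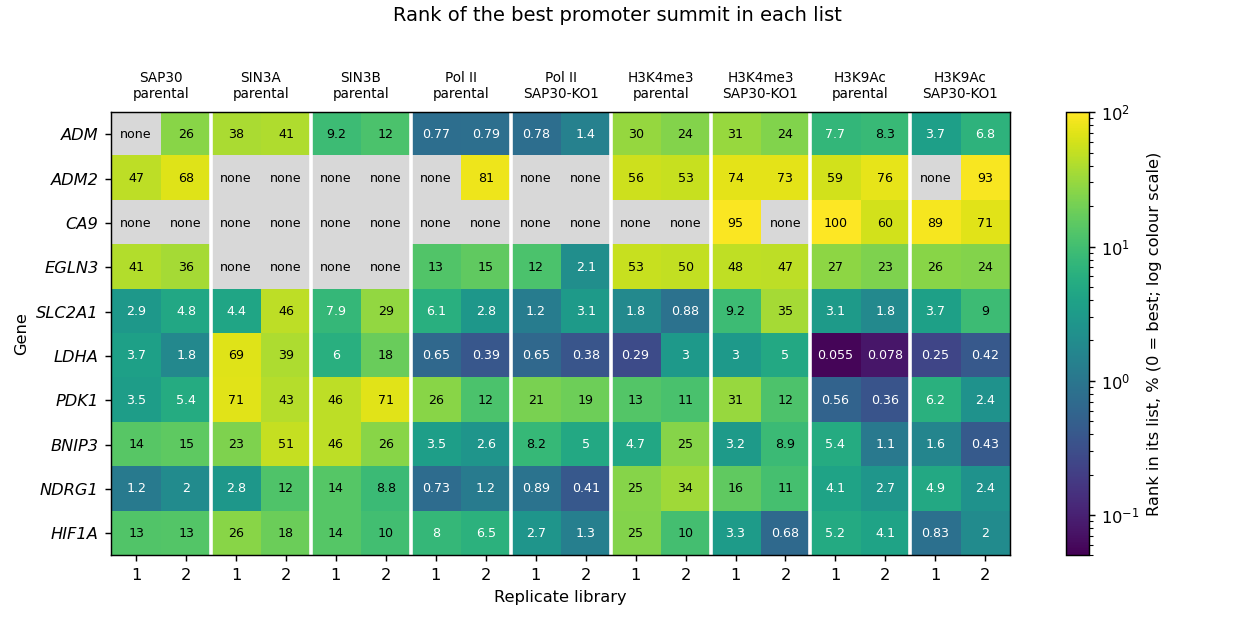
Rank of the best summit within 1000 bp of a start site, as a percentage of its list (0 is best), for 10 genes in rows and 18 libraries in columns; the colour scale is logarithmic and grey cells had no promoter peak. ADM2, CA9 and EGLN3 are grey for SIN3A and SIN3B, and CA9 is grey for SAP30 and Pol II as well.

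The glycolytic and glucose transport genes carried the best SAP30 ranks, next to NDRG1, a stress-induced gene whose product restrains metastasis in several cancers. In the 2 SAP30 libraries NDRG1 (chromosome 8, 134249418 to 134314265) ranked at 1.15% and 1.96%. LDHA, which makes the lactate dehydrogenase subunit that turns pyruvate into lactate (chromosome 11, 18416107 to 18429972), ranked at 3.72% and 1.76%. SLC2A1, the glucose transporter GLUT1 (chromosome 1, 43391024 to 43424564), ranked at 2.87% and 4.83%. PDK1, a kinase that shuts pyruvate out of the mitochondrial cycle (chromosome 2, 173420101 to 173473397), ranked at 3.48% and 5.35%. NDRG1 overlapped LDHA, LDHA overlapped SLC2A1 and SLC2A1 overlapped PDK1, while both NDRG1 ranks were better than those of SLC2A1 and PDK1. HIF1A (chromosome 14, 62162231 to 62214977) followed at 12.6% and 12.9%. BNIP3, a mitophagy receptor (chromosome 10, 133781188 to 133795471), ranked at 13.9% and 15.1%. EGLN3, a prolyl hydroxylase that is itself induced by HIF (chromosome 14, 34393433 to 34931980), ranked at 41.4% and 35.9%. ADM2 (chromosome 22, 50919972 to 50924869), the gene of intermedin, which shares receptors with adrenomedullin and promotes vessel growth, came last at 47.2% and 68.2%. From PDK1 on, each gene stood apart from the next in both libraries. The median over the 8 genes was 8.59%, beside 17.1% for all coding genes with a SAP30 promoter peak in both libraries.

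At ADM, the gene of adrenomedullin (chromosome 11, 10326620 to 10328944), the SAP30 libraries disagreed within 1000 bp of a start site. Replicate 2 placed a summit at rank 25.9%, 93 bp downstream of a start site, and the nearest summit of replicate 1 was 2202 bp away. SIN3A and SIN3B had a peak there in both libraries. SIN3A ranked at 38.4% and 40.9% at ADM and SIN3B at 9.16% and 11.7%, the best mean rank of SIN3B among the 7 genes. Its SIN3B ranks overlapped those of NDRG1, LDHA, HIF1A and SLC2A1. Joining summits of any list within 1000 bp of the next gave a wider stretch around the ADM start (chromosome 11, 10324322 to 10331138). In that stretch SAP30 was present in both libraries, at best ranks of 4.06% and 5.19%, and SIN3A at 8.27% and 10.9%. With a window of 3000 bp, 9 of the genes had SAP30 in both libraries. CA9, a cell-surface carbonic anhydrase that acidifies the surroundings of hypoxic cells (chromosome 9, 35673925 to 35681156), had its nearest SAP30 summits at 8781 bp and 8745 bp, close to the start of its neighbour ARHGEF39, 8733 bp away.

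SIN3A varied more between its libraries than SAP30 did at several of these genes. SLC2A1 ranked at 4.42% and 46.4% for SIN3A, LDHA at 69.2% and 39.4%, and PDK1 at 71.1% and 43.0%. NDRG1 had the best mean SIN3A rank, at 2.82% and 12.4%, a range that held the SLC2A1 rank of replicate 1. The median SIN3A rank over 7 genes was 37.0%, beside 35.9% for coding genes. For SIN3B the median was 11.8%, beside 21.6%.

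In parental cells these promoters had high-ranked Pol II. A Pol II peak was present in both parental libraries at 8 of 10 genes, beside 57.7% of coding genes, and in both SAP30-KO1 libraries at 8, beside 53.9%. The median parental rank of the 8 genes was 3.76%, where the median coding gene with such a peak stood at 25.5%. LDHA led at 0.651% and 0.391%, and ADM followed at 0.772% and 0.791%, overlapping NDRG1 at 0.728% and 1.17%. CA9 had no Pol II promoter peak in any of 4 libraries. H3K4me3, a mark of promoters, was present in both libraries at 9 genes in each line, beside 63.8% of coding genes in parental cells and 62.8% in SAP30-KO1. H3K9Ac, found at active promoters and enhancers, was present in both parental libraries at all 10 genes, beside 61.4%, and in both SAP30-KO1 libraries at 9, beside 61.1%. LDHA had the best H3K9Ac ranks of the 10, at 0.0549% and 0.0783%, and PDK1 came next at 0.564% and 0.363%. CA9, which lacked Pol II, still had H3K9Ac summits 233 bp and 234 bp downstream of its start, at ranks of 99.5% and 60.0%.

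The summits of the different targets lay at different places in the same promoters. Over the 10 genes the median Pol II summit of parental cells was 14 bp downstream of the nearest start site and the median SAP30 summit 70 bp, beside 20 bp and 51 bp over coding genes. The median H3K4me3 summit lay at 181.5 bp and the median H3K9Ac summit at 217.5 bp, beside 165 bp and 191 bp. Single summits varied, with 15 of 18 for H3K4me3 and 13 of 20 for H3K9Ac downstream of a start. In the canonical transcripts, 15 of 17 parental Pol II summits and 12 of 17 SAP30 summits were in a 5′ UTR, while 10 of 18 parental H3K4me3 summits were in an intron. SAP30 was in the first intron at PDK1, 534 bp and 435 bp downstream of a start site, and before the start at LDHA. At SLC2A1, PDK1 and HIF1A a long noncoding RNA gene (SLC2A1-DT, PDK1-AS1 and HIF1A-AS1) starts 181 bp, 439 bp and 115 bp away, so a promoter peak there cannot be assigned to 1 of the 2 genes.

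**Figure D2:**
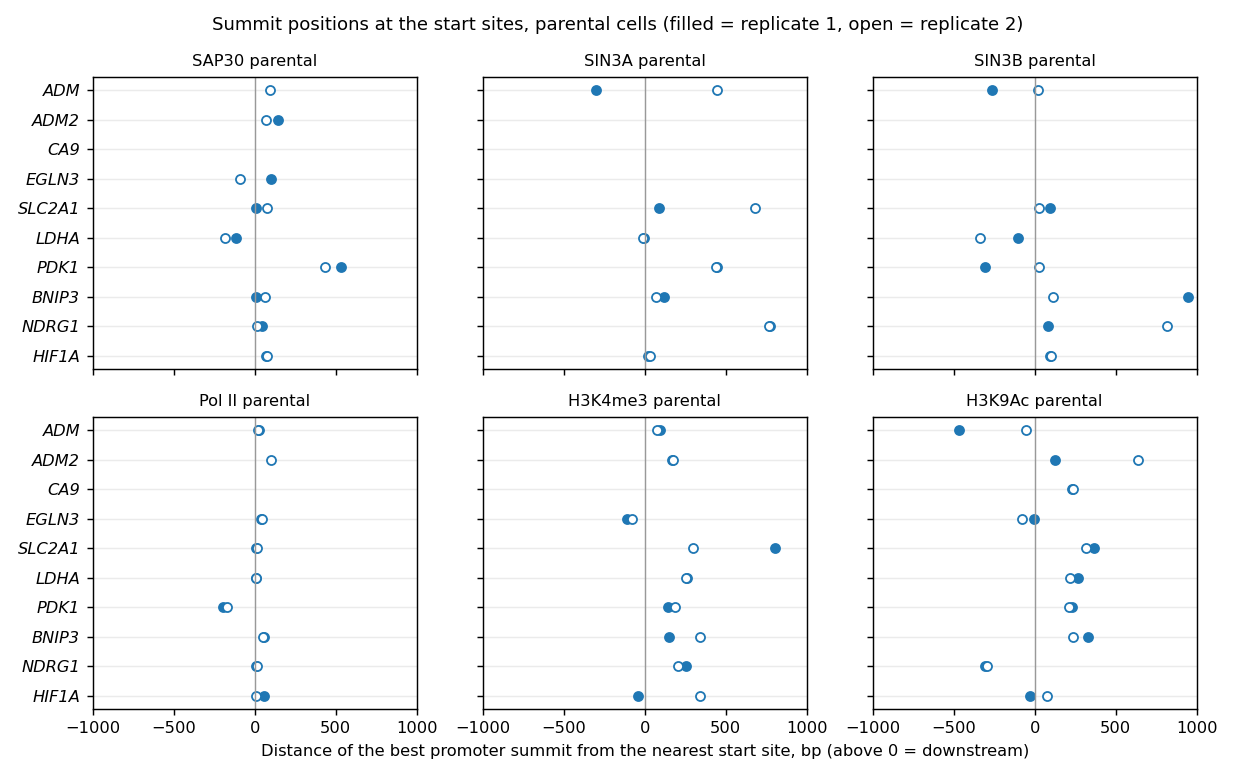
Distance in bp from the nearest start site to the best promoter summit (above 0 is downstream) for each gene and parental target; filled points are replicate 1 and open points replicate 2. Pol II summits cluster at the start, with a median of 14 bp. The medians of H3K4me3 and H3K9Ac lie farther downstream, though only 13 of 20 H3K9Ac summits are downstream of a start.

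Whether loss of SAP30 altered these promoters was examined as the mean rank in the SAP30-KO1 libraries minus that in the parental libraries, in percentage points, so that a value above 0 is a worse rank in the knockout. With 2 libraries against 2 the two-sided exact permutation test cannot give a p below 0.33, so no difference at a single gene can pass a threshold of 0.05, and every gene described below as worse or better in the knockout (both knockout ranks beyond both parental ranks on 1 side) had that p. A promoter peak counted as lost when both parental libraries and neither knockout library held it, and as gained in the reverse case. None of the 10 genes lost or gained a promoter peak. Over coding genes, Pol II was lost at 2.33% and gained at 0.337%, H3K4me3 was lost at 1.43% and gained at 0.299%, and H3K9Ac was lost at 0.689% and gained at 0.908%.

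Of the 8 genes with a promoter peak of every mark in all libraries, HIF1A had better ranks in the knockout for all 3 marks. Its Pol II ranks were 7.95% and 6.52% in parental cells and 2.66% and 1.32% in SAP30-KO1. For H3K4me3 they were 24.5% and 10.4% against 3.26% and 0.679%. For H3K9Ac they were 5.18% and 4.12% against 0.834% and 1.95%. The lines did not overlap for any mark, and the differences were -5.24, -15.5 and -3.26 percentage points. Of the 10394 coding genes with a promoter peak of every mark in all libraries, 114 (1.1%) had both SAP30-KO1 ranks better for all 3. Among coding genes the H3K4me3 difference of HIF1A stood at percentile 1.37, and the Pol II and H3K9Ac differences at percentiles 20.8 and 17.7. Without parental replicate 1 the H3K4me3 difference was -8.38. The best H3K4me3 summit was 39 bp upstream and 339 bp downstream of a start site in the 2 parental libraries and 353 bp downstream and 81 bp upstream in the knockout libraries, so either side of the start held the best summit in both lines.

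H3K4me3 gave the widest differences, in both directions. At ADM2 the H3K4me3 ranks were 55.6% and 52.5% in parental cells and 74.3% and 72.9% in SAP30-KO1, a difference of 19.6 points, at percentile 98.8 of coding genes. Both knockout values lay far outside the narrow parental pair. The same promoter had H3K9Ac at 58.7% and 76.2% in parental cells, at 92.7% in 1 SAP30-KO1 library and not at all in the other, and Pol II at 81.4% in 1 parental library alone. All of these were low in their lists. Ranked only among coding genes with H3K4me3 in all 4 libraries, which puts most weak peaks outside promoters aside, the difference at ADM2 was 5.74 points. The paper reports ADM2 as a gene coactivated by SAP30 and the SIN3 proteins, with less ADM2 mRNA after SAP30 knockout. It also reports less MLL1 at ADM2, and less H3K4me3 over its coactivated genes as a set, in SAP30-KO1. The lists used here come from that study, so the difference at ADM2 is not an independent observation.

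SLC2A1 had H3K4me3 at 1.79% and 0.882% in parental cells and at 9.23% and 35.4% in the knockout, a difference of 21.0 points, at percentile 99.2. The knockout libraries differed widely from each other, and without SAP30-KO1 replicate 2 the difference was 7.90. Its H3K9Ac ranks were 3.14% and 1.78% against 3.74% and 9.05%, a difference of 3.93 that was 1.27 without the same replicate number of SAP30-KO1. Its Pol II ranks overlapped, at 6.11% and 2.80% against 1.22% and 3.13%, so the marks did not move together at this gene.

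NDRG1 was on the other side for H3K4me3, at 25.1% and 34.2% in parental cells and 15.8% and 10.7% in SAP30-KO1, a difference of -16.4 at percentile 1.05. Its Pol II ranks, 0.728% and 1.17% against 0.893% and 0.411%, and its H3K9Ac ranks, 4.09% and 2.70% against 4.89% and 2.40%, overlapped between the lines. Ranked among coding genes alone, the H3K4me3 differences were 40.8 at SLC2A1, -33.4 at NDRG1, -32.6 at HIF1A and -6.86 at EGLN3. On that scale most other differences whose lines were separate in the full lists were wider too. For Pol II they were -11.3 at HIF1A, -15.4 at EGLN3 and 7.93 at BNIP3. Only 1 gene then had both knockout Pol II ranks better, so the lines did not stay separate at both HIF1A and EGLN3. For H3K9Ac they were -14.8 at HIF1A, -12.8 at ADM, 15.8 at both PDK1 and SLC2A1 and 1.16 at LDHA.

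EGLN3 had better ranks in the knockout for H3K4me3, with 53.1% and 50.4% against 48.2% and 47.3%, a difference of -3.98 that was -2.65 without parental replicate 1 and -7.29 with lists of equal length. Its Pol II ranks were 12.5% and 15.5% in parental cells and 11.6% and 2.15% in SAP30-KO1. The Pol II difference of -7.10 rested on 1 library, since without SAP30-KO1 replicate 2 it was -2.36, and with lists of equal length the ranks of the lines overlapped. H3K9Ac overlapped at EGLN3, at 27.5% and 22.9% against 25.8% and 24.5%.

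PDK1 and LDHA, beside SLC2A1, were the genes with worse H3K9Ac ranks in the knockout. PDK1 ranked at 0.564% and 0.363% in parental cells and at 6.20% and 2.43% in SAP30-KO1, a difference of 3.85 that was 1.96 without SAP30-KO1 replicate 1. LDHA ranked at 0.0549% and 0.0783% against 0.246% and 0.417%, a difference of 0.265, so it stayed among the best peaks of every list. At neither gene did both knockout ranks of Pol II or H3K4me3 lie on the same side of both parental ranks. LDHA had Pol II at 0.651% and 0.391% against 0.647% and 0.375% and H3K4me3 at 0.287% and 3.05% against 2.98% and 4.98%. PDK1 had Pol II at 25.9% and 11.7% against 21.4% and 18.9% and H3K4me3 at 12.9% and 11.2% against 31.2% and 12.1%. BNIP3 had worse Pol II ranks in the knockout, at 3.50% and 2.63% against 8.18% and 4.96%, a difference of 3.51 that was 1.90 without SAP30-KO1 replicate 1. The BNIP3 ranks of H3K4me3 (4.74% and 24.9% against 3.16% and 8.89%) and H3K9Ac (5.36% and 1.07% against 1.58% and 0.433%) overlapped, and the H3K4me3 difference of -8.81 was 1.28 without parental replicate 2 and -18.9 without parental replicate 1.

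ADM kept nearly the same Pol II and H3K4me3 ranks. Pol II stood at 0.772% and 0.791% in parental cells and at 0.778% and 1.40% in SAP30-KO1, and H3K4me3 at 30.4% and 24.5% against 30.6% and 23.9%. The H3K9Ac ranks were 7.72% and 8.26% against 3.67% and 6.76%, a difference of -2.77. Its direction depended on which summit was taken. With the summit nearest to a start site in place of the best-ranked one it was 1.93, without SAP30-KO1 replicate 1 it was -1.23, and with a window of 3000 bp it was -1.57 and the lines overlapped. CA9 had H3K9Ac in all 4 libraries, at 99.5% and 60.0% against 89.2% and 71.0%, and H3K4me3 in 1 SAP30-KO1 library alone, at 95.0%.

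**Figure D3:**
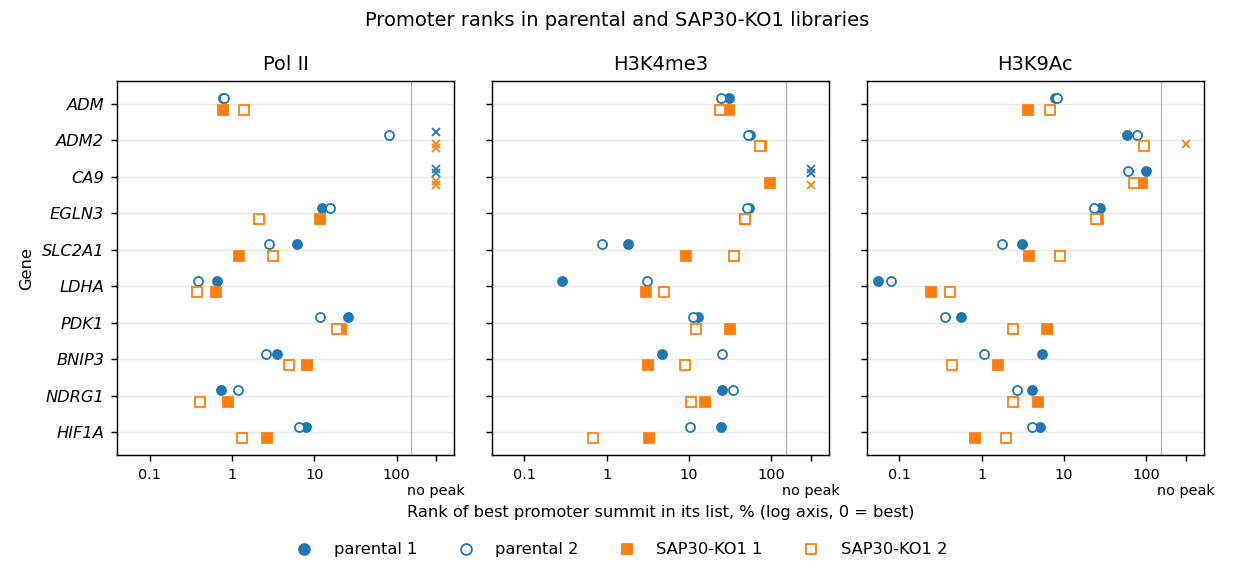
Promoter rank of each gene in its list (percent, logarithmic axis, 0 is best) for Pol II, H3K4me3 and H3K9Ac in the 2 parental libraries (circles) and the 2 SAP30-KO1 libraries (squares), filled for replicate 1 and open for replicate 2; crosses mark a library with no promoter peak. The squares of HIF1A lie left of its circles in all 3 panels, and those of SLC2A1 lie right of them for H3K4me3 and H3K9Ac.

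Counted over the list, Pol II ranks were worse in both knockout libraries than in both parental libraries at 1 of the 8 genes with a peak in all 4 libraries and better at 2, beside 24.2% and 15.4% of coding genes. For H3K4me3 they were worse at 2 and better at 3 of 9 genes, beside 28.1% and 11.5%. For H3K9Ac they were worse at 3 and better at 2 of 9 genes, beside 22.1% and 16.4%. The median difference of the genes was -0.15 points with Pol II, -0.21 with H3K4me3 and 0.249 with H3K9Ac, beside 1.48, 2.09 and 0.309 for coding genes. A list of so few genes gives no common direction for any mark, and single libraries turned the sign of 2 of these medians. The H3K9Ac median was -2.36 without parental replicate 2 and -0.868 without SAP30-KO1 replicate 1. It was 0.945 without parental replicate 1 and 0.577 without SAP30-KO1 replicate 2. With lists of equal length it was -0.86. The H3K4me3 median was 1.31 without SAP30-KO1 replicate 2, 0.933 without parental replicate 1 and 1.28 without parental replicate 2. Without SAP30-KO1 replicate 1 it was -3.58.

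**Figure D4:**
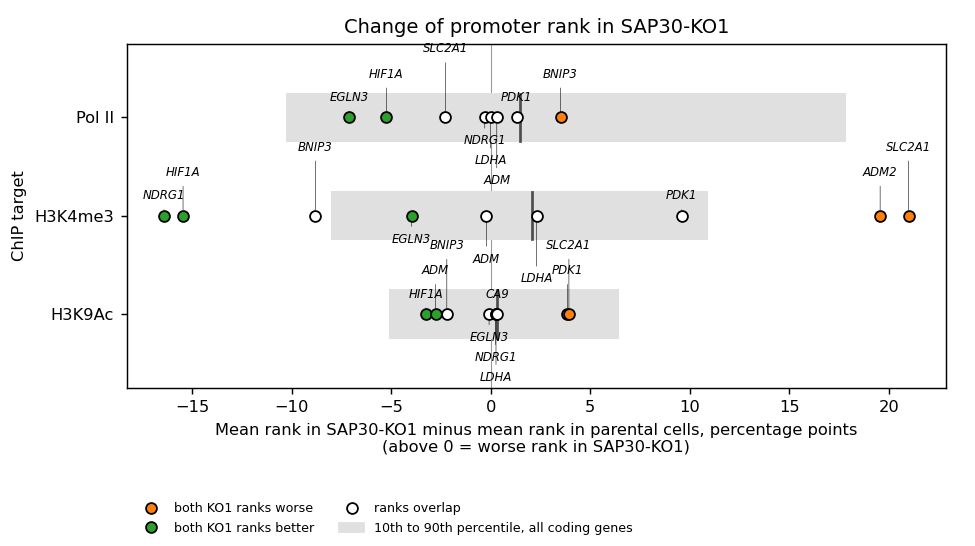
Mean rank in SAP30-KO1 minus mean rank in parental cells, in percentage points (above 0 is worse in the knockout), for genes with a promoter peak in all 4 libraries; grey bars run from the 10th to the 90th percentile of all coding genes and the vertical tick is their median. H3K4me3 places SLC2A1 (21.0) and ADM2 (19.6) beyond one end of the bar and NDRG1 (-16.4), HIF1A (-15.5) and BNIP3 (-8.81) beyond the other; the BNIP3 value was 1.28 without parental replicate 2.

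A wider list of 64 genes of the same pathways was counted in the same way. SAP30 was present in both libraries at 51 of them (79.7%), SIN3A at 29 (45.3%) and SIN3B at 43 (67.2%), beside 61.2%, 31.5% and 51.7% of coding genes. None lost or gained a promoter peak of any mark, where the shares over coding genes were only 0.299% to 2.33%. Pol II ranks were worse in the knockout at 10 and better at 6 of 47 genes with a peak in all 4 libraries, beside 24.2% and 15.4% of coding genes. H3K4me3 ranks were worse at 11 and better at 3 of 52, beside 28.1% and 11.5%, and H3K9Ac ranks were worse at 12 and better at 4 of 52, beside 22.1% and 16.4%. The shares with worse ranks were thus near or below those of coding genes. In all 3 marks at once the ranks were worse at 1 of 46 of these genes, the glycolytic enzyme gene PGK1, and at 304 of 10394 coding genes. Its Pol II ranks went from 8.93% and 18.4% to 41.2% and 19.7%.

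Among 19 genes of glucose uptake and glycolysis, Pol II ranks were worse at 4 and better at 3 of 17, H3K4me3 ranks worse at 2 and better at 1 of 16, and H3K9Ac ranks worse at 6 and better at 0 of 17. The coding-gene shares to read these and the next counts against are 24.2% worse and 15.4% better for Pol II, 28.1% and 11.5% for H3K4me3, and 22.1% and 16.4% for H3K9Ac. Among genes of this group whose lines were separate, the widest worse H3K9Ac difference was at PFKFB4, with 5.72% and 8.46% against 18.2% and 12.3%. Its enzyme sets the level of a glycolytic activator. SLC2A3, a second glucose transporter, had better Pol II ranks, 31.8% and 22.4% against 14.3% and 6.48%, and the enolase gene ENO2 had better H3K4me3 ranks, 32.2% and 45.5% against 27.6% and 25.0%. The other pyruvate dehydrogenase kinases went apart for Pol II. PDK2 was worse, with 58.8% and 54.3% against 74.1% and 83.3%, and PDK3 was better, with 52.1% and 55.1% against 41.9% and 44.5%.

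Of 7 oxygen-sensing genes, 6 had a peak of each mark in all 4 libraries. Of these 6, 1 had worse and 1 better Pol II ranks, and 2 had worse and 0 better ranks for each histone mark. In the group of matrix enzymes and histone demethylases, the collagen-modifying genes P4HA1 and PLOD2 had better H3K4me3 ranks (19.0% and 25.4% against 16.3% and 4.98% at P4HA1, 25.2% and 26.8% against 16.7% and 16.8% at PLOD2). LOX, a collagen cross-linking enzyme gene, was worse for H3K4me3, at 32.1% and 30.2% against 42.6% and 41.1%. P4HA2, a relative of P4HA1, was worse for Pol II, at 24.6% and 18.4% against 35.1% and 34.2%, and the demethylase gene KDM4B was worse for H3K9Ac, at 10.5% and 6.96% against 13.9% and 16.7%. The carbonic anhydrase gene CA12 had the widest better Pol II difference of the list, -22.4 points, from 67.4% and 61.4% to 33.0% and 51.0%.

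In the adrenomedullin family and its receptors, 7 genes beside ADM and ADM2, no gene had a Pol II promoter peak in all 4 libraries and 1 had H3K4me3 and H3K9Ac in all 4. RAMP1, the gene of a receptor accessory protein, ranked at 18.05% and 16.4% for H3K9Ac in parental cells and at 24.2% and 28.0% in SAP30-KO1. The widest better H3K9Ac differences of the whole list were at CA2, from 73.0% and 52.6% to 26.5% and 29.9%, at the chemokine receptor gene CXCR4, from 81.7% and 35.6% to 26.5% and 27.2%, and at ANGPTL4, from 35.5% and 50.6% to 30.2% and 23.7%. The widest worse H3K4me3 differences were at MXI1, from 10.5% and 9.93% to 31.4% and 20.0%, and at NDRG4, a relative of NDRG1, from 78.2% and 70.0% to 84.5% and 93.8%. Parental libraries of CXCR4 already differed by more than the knockout libraries did.

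SAP30 was also found around these genes, away from start sites. Summits of any list that lay within 1000 bp of the next were joined into a region, and 60 regions lay within 50 kb of the start sites of the 10 genes, 39 of them more than 1000 bp from any start site of a coding or long noncoding RNA gene. SAP30 was present in both libraries at 15 of the 39, SIN3B at 4 and SIN3A at 0. The same share was not counted around other genes, so these counts have no background. The lists also differ in length. They held 54622 and 53651 peaks for parental H3K9Ac, 35001 and 35007 for SAP30, 26307 and 22298 for SIN3B, and 11115 and 10861 for SIN3A. H3K9Ac was present in both parental libraries at 12 of the 15 SAP30 regions and in all 4 H3K9Ac libraries at 11, while 4 had Pol II and 2 had H3K4me3 in both parental libraries. SLC2A1 held 4 of the 15, 3 of them in its introns, and HIF1A held 5.

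The longest was in the introns of SLC2A1 (chromosome 1, 43401913 to 43412029), where the best SAP30 summits ranked at 24.7% and 11.9% and the best H3K9Ac summits at 29.3% and 28.9% in parental cells and at 34.0% and 28.8% in SAP30-KO1. Pol II was present there in both parental libraries, low in their lists at 75.2% and 61.1%, and in neither knockout library. Of the 4 regions with Pol II in both parental libraries, this was the only one lost. Only 1, before LDHA, had Pol II in both libraries of each line. Those around BNIP3 and HIF1A had it in 1 knockout library. How often Pol II or H3K9Ac regions go missing elsewhere in the knockout was not counted. A region 9995 bp before LDHA, away from any start (chromosome 11, 18404576 to 18406114), had SAP30 at 25.2% and 23.7% and H3K9Ac at 10.2% and 6.43% in parental cells, against 7.66% and 10.5% in the knockout. Around ADM, SAP30 and H3K9Ac shared a region 46469 bp downstream (chromosome 11, 10372052 to 10374126), with SAP30 at 30.5% and 48.4%. A further H3K9Ac region 18140 bp downstream of ADM (chromosome 11, 10344467 to 10345053) ranked at 64.7% and 72.1% in parental cells and was absent from both SAP30-KO1 lists. Of the 15 regions with H3K9Ac in both parental libraries, this was the only one lost and 13 had it in both libraries of each line. Before ADM2, a region 11064 bp upstream (chromosome 22, 50907874 to 50908908) had SAP30 at 36.7% and 41.9%, better than the ranks at the ADM2 promoter itself, and H3K9Ac in all 4 libraries. Nearness does not show which gene a region acts on, and 6 other coding genes start within 50 kb of ADM2.

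**Figure D5:**
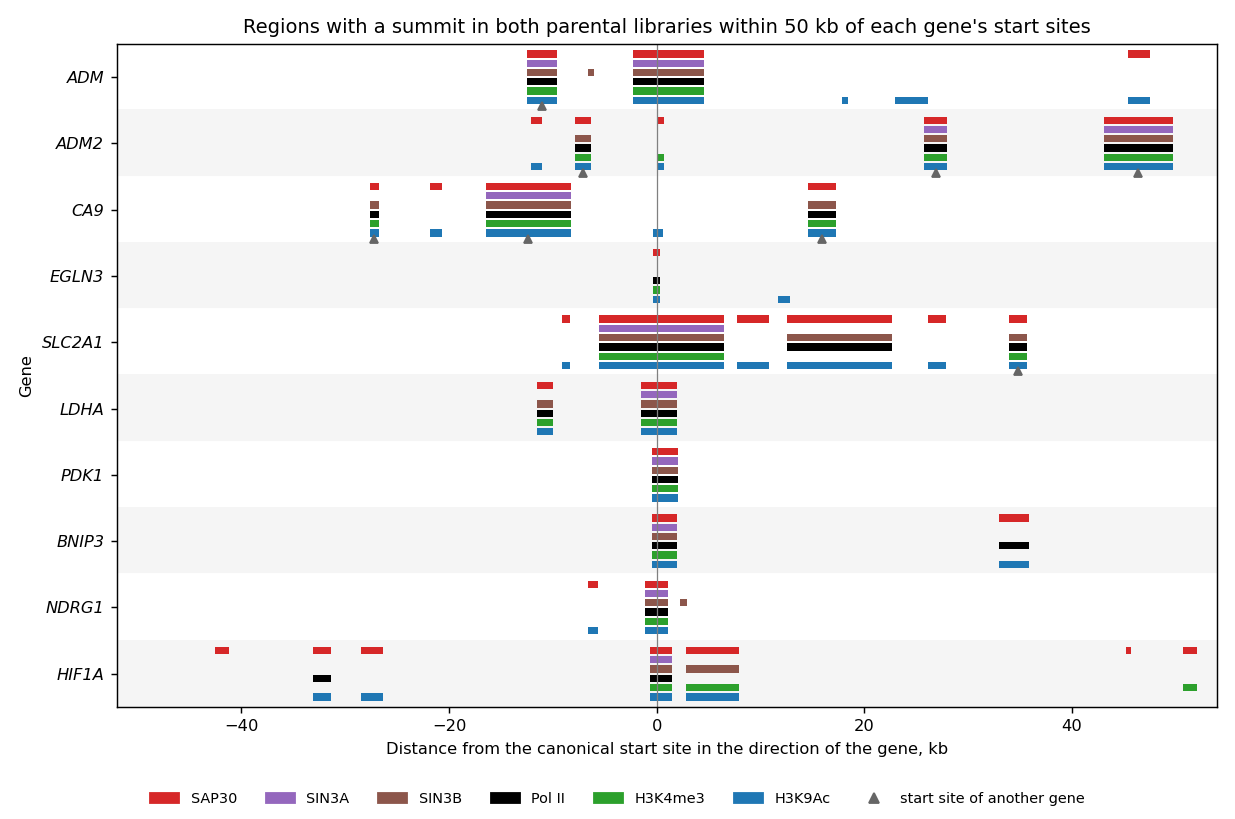
Regions with a summit in both parental libraries, by distance in kb from the canonical start site of each gene in the direction of transcription; each coloured line is 1 ChIP target and triangles mark regions at the start site of another gene. SAP30 (red) and H3K9Ac (blue) recur away from the starts, SAP30 most often around HIF1A and SLC2A1, whereas SIN3A (purple) is drawn only at start sites or within 1000 bp of one. Of the parental lists, those of H3K9Ac and SAP30 are also the longest and those of SIN3A the shortest.

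The genes most like ADM and ADM2 over all 18 lists were sought by the mean absolute difference of rank, with a missing promoter peak set to 100%. Nearest to ADM were TDP1, MAP2K3 and PCNX4, at 8.57, 8.69 and 9.18 points, where the median coding gene was 34.3 points away. TDP1 and MAP2K3 had or lacked a peak in the same 18 libraries as ADM, the disagreement of the SAP30 libraries included. Nearest to ADM2 were F11R, ZDHHC11B and CARMIL3, at 4.67, 5.03 and 5.33 points, where the median was 38.2, and each matched the presence or absence of ADM2 in 16 of 18 lists.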

How the data were processed

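Libraries from MDA-MB-231 were assigned by antibody target and genotype as given in the labels. Of 30 samples, 12 (input or total H3) were not used here. Per the submitters' processing notes, tools named were FastQC 0.11.2, Bowtie2 2.3.3.1, Picard and MACS2 2.1.0 with build hg19, and options and the control of each list are not given in the sources used here. The authors deposited 1 list of 1 bp summits per library, scored as the −log10 of the q-value, the lowest being 1.30.

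Start sites were those of basic transcripts in GENCODE release 44 lifted to GRCh37, the same assembly, and gene body counts used the span of those transcripts. Ranks were averaged over ties. Lists have no depth, so no counting interval is given. Nothing in the labels says that the 2 libraries of a group came from separate cultures, so differences are set against a spread that may be technical. All 10 genes are described. From 64 other pathway genes, those named are any with a lost or gained promoter peak and, per mark, the 3 with the largest change each way among genes whose knockout ranks lie outside the parental ones. For ADM and ADM2 the 3 most similar genes are named. Other genes were named after their values were seen. The genes, lists and tests were chosen with earlier results of these data known. Replicate numbers did not pair the libraries. Counting was tested on simulated lists. Python 3.11.15, numpy 2.4.6, scipy 1.17.1, pyfaidx 0.9.0.4 and matplotlib 3.10.9 were used.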

Additional observations from a re-analysis of the deposited data

How the results depend on the processing

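Alternatives were windows of 500 and 3000 bp, the canonical start site only, the summit nearest to a start site, the better-ranked 50% of each list, lists of equal length, ranks among coding genes alone, the replicate number as a block and each library left out in turn. Of 210 recomputed counts and medians 184 held within the limits set (counts within 1.5 times, medians within the spread between replicates). Of 284 recomputed differences at single genes 264 held. Of these 264, 104 came from leaving out a library and 26 from the replicate block. Their outcome was fixed in advance, as was that of the 3 block medians. With 2 libraries per line, no left-out library can shift a difference at a single gene beyond the limit, and the block leaves the mean difference unchanged. They do not measure stability. Among the differences that did not hold, ADM for H3K9Ac reversed to 1.93 with the nearest summit. A further 17 moved when genes were ranked among coding genes alone, where the scale is wider for most. The H3K4me3 median was -2.14 with lists of equal length, -3.14 among coding genes and -2.10 with 500 bp, where SLC2A1 had no peak in 1 parental library and 1 gene was worse. With the better-ranked 50% of each list, 4 genes had SIN3A in both libraries and 1 gained H3K4me3. H3K9Ac ranks were better at 1 gene with the nearest summit and at 1 with 3000 bp. Pol II ranks were better at 1 gene with lists of equal length and at 1 among coding genes, where 2 were worse.

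Leaving out 1 library moved the median from -3.58 to 1.31 for H3K4me3, from -2.36 to 0.945 for H3K9Ac and from -2.04 to -0.031 for Pol II. Lost peaks went from 0 to 1 for Pol II (ADM2, without parental replicate 1) and from 0 to 1 for H3K9Ac (ADM2, without SAP30-KO1 replicate 2), and gained peaks from 0 to 1 for H3K4me3 (CA9, without SAP30-KO1 replicate 2). Genes with better ranks numbered 2 to 5 for H3K9Ac and 3 to 5 for Pol II. Genes with worse ranks numbered 3 to 4 for H3K4me3, 3 to 5 for H3K9Ac and 1 to 2 for Pol II. With a single library in a line its rank has no spread of its own, so these are values with no test. The cause of these moves was not tested.

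Differences between replicates 1 and 2 did not go together in the 2 lines (correlation over coding genes Pol II 0.0074, H3K4me3 -0.019 and H3K9Ac -0.014), so the libraries share only a number. With the replicate block the medians were -0.15 with Pol II, -0.21 with H3K4me3 and 0.249 with H3K9Ac. With 2 libraries in each line these equal the medians without it by arithmetic, so they show nothing about pairing. The smallest p of 2 pairs in an exact test is 0.5. Depth is unknown, so a missing peak is not evidence of no binding.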
